A study of Mus musculus with 4 samples.

Results

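The cells described here are 377 of the 23011 tumour leukocytes that passed the quality filter, and they were gated for RNA of Xcr1 or Clec9a, the receptor genes by which conventional type 1 dendritic cells (cDC1) are usually recognised. A member had 300 to 5000 detected genes, at most 6% of its UMIs (unique molecular identifiers, 1 per captured RNA molecule) from mitochondrial genes, and at least 1 UMI of Xcr1 and Clec9a together. It also had at least 1 UMI of Flt3, Zbtb46 and Wdfy4 together, under 5 UMIs of C1qa, C1qb and C1qc together, and none of Cd3e, Cd3d, Cd3g or Cd79a, and it did not carry both Ccr7 and Fscn1. The members were thus chosen on measured values, and the levels of these genes are given as a description. The data met the name cDC1 only in part. Of the 377 members, 76 carried Xcr1 UMIs and the other cDC1 genes, 116 others carried Siglech and further genes of plasmacytoid dendritic cells, and the rest had few defining genes of either kind, so they are called Xcr1/Clec9a-gated members below.

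The leukocytes came from subcutaneous KPC tumours of male C57BL/6NHsd mice. KPC cells are a mouse pancreatic tumour line from animals with the Pdx1-Cre transgene, and every group carried tumours of this line. The 4 groups were untreated, STING agonist (ADU-S100, a cyclic dinucleotide injected once into the tumour), LTbR agonist (the antibody 4H8 against the lymphotoxin beta receptor, given repeatedly into the peritoneum) and both together, called the combination. The tumours of a group were pooled before live CD45+ cells were sorted, and 1 library was made for each group, so no comparison between groups has a replicate or a test. Values are given with 95% intervals that cover counting error only, since the UMIs of a library come from few cells and differences between mice cannot be seen.

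cDC1 depend on the transcription factors BATF3 and IRF8 and on the growth factor receptor FLT3. They take up material from dying cells through CLEC9A and present its antigens on MHC class I to CD8 T cells, and XCR1 lets them find lymphocytes that secrete XCL1. In tumours they are also known as a source of CXCL9, CXCL10 and IL-12. Plasmacytoid dendritic cells, which answer nucleic acids with type I interferon, carry SIGLECH, LY6D and CCR9, and in mice they are known to carry low CLEC9A.

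The files held 24839 barcodes, from 3955 in the STING agonist library to 7824 in the LTbR agonist library, with medians of 5467 to 7094 UMIs. Members were deeper, with library medians of 10847 to 13236 UMIs and sums of 2152900 UMIs in the untreated, 776853 in the STING agonist, 1201246 in the LTbR agonist and 640102 in the combination library. Barcode sequences found in more than 1 library numbered 284, and 6 members had such a sequence, but members of different libraries shared 0. Scrublet, a doublet caller, gave 8 members a score above 0.2 (3 in the untreated and 5 in the LTbR agonist library) and 2.91% of all filtered cells, and these were kept.

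Within the gate, the members were split into subgroups by Xcr1, which the rule had used, and by Siglech and Cd209a, which it had not. The subgroups were formed after the values had been seen, in the order Xcr1, Siglech, Cd209a and none of the 3 detected, and they held 76, 116, 42 and 143 cells. Xcr1 and Siglech were detected together in 1 cell and Xcr1 and Cd209a in 1 cell, whereas Siglech and Cd209a met in 21 cells. The cell with both Xcr1 and Siglech, from the combination library, counts as Xcr1-detected, and it is left out along with the 116 wherever values are given without the Siglech-detected cells. The Xcr1-detected members carried the cDC1 genes that played no part in the gate. Cadm1, an adhesion molecule of cDC1, reached 366 CPM (UMIs per 1000000 UMIs summed over the cells named) and was found in 77.6% of them. Tlr3, the receptor for double-stranded RNA, stood at 163 CPM, Itgae, which encodes CD103, at 513 CPM, Batf3 at 191 CPM and Naaa, a lysosomal amidase, at 1176 CPM. Plet1 reached 1023 CPM and Ppt1, a lysosomal thioesterase, 783 CPM. In this subgroup the data thus met the name.

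The Siglech-detected members carried a different set. They had 1522 CPM of Ly6d, 1624 CPM of Cox6a2, 966 CPM of Klk1, 836 CPM of Ccr9, a chemokine receptor, and 3514 CPM of Bst2, an interferon-induced surface protein that marks plasmacytoid dendritic cells in mice. Ly6d and Klk1 were at 0 UMIs in the 76 Xcr1-detected members, which had 7.17 CPM of Ccr9. The cDC1 genes were low in the Siglech-detected members, with 1.64 CPM of Tlr3, 3.29 CPM of Batf3, 26.3 CPM of Cadm1 and 17.3 CPM of Naaa. Irf8, which both cell types are known to need, was high in both subgroups, at 1518 CPM with Xcr1 and 2144 CPM with Siglech. Clec9a was detected in all 116 of them, as the gate required, at 229 CPM against 355 CPM with Xcr1. Cst3, a cysteine protease inhibitor abundant in conventional dendritic cells, was at 27647 CPM with Xcr1 and 805 CPM with Siglech. Ly6c2, at 4766 CPM, and Grm8, found in 83.6% of these members and at 0 UMIs in the other subgroups, also set them apart.

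The remaining members stood between these profiles. The 143 members with none of the 3 genes had 532 CPM of Naaa, 606 CPM of Plet1 and 135 CPM of Itgae, but 63.1 CPM of Cadm1 and 25.2 CPM of Tlr3, and their Lyz2, a lysozyme gene of myeloid cells, was at 1396 CPM against 227 CPM with Xcr1. The 42 Cd209a-detected members had 2.09 CPM of Cadm1 and 60.7 CPM of Batf3. No cell type name is given to either subgroup. Over the 4 libraries, the 20 genes highest in members over all other filtered cells mixed both profiles. Plet1, Cadm1, Itgae and Gcsam came from the Xcr1 side and Siglech, Cox6a2, Klk1, Ccr9, Grm8, Dntt and Lefty1 from the Siglech side, while Clec9a, Wdfy4 and Flt3 were used by the rule.

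**Figure D1:**
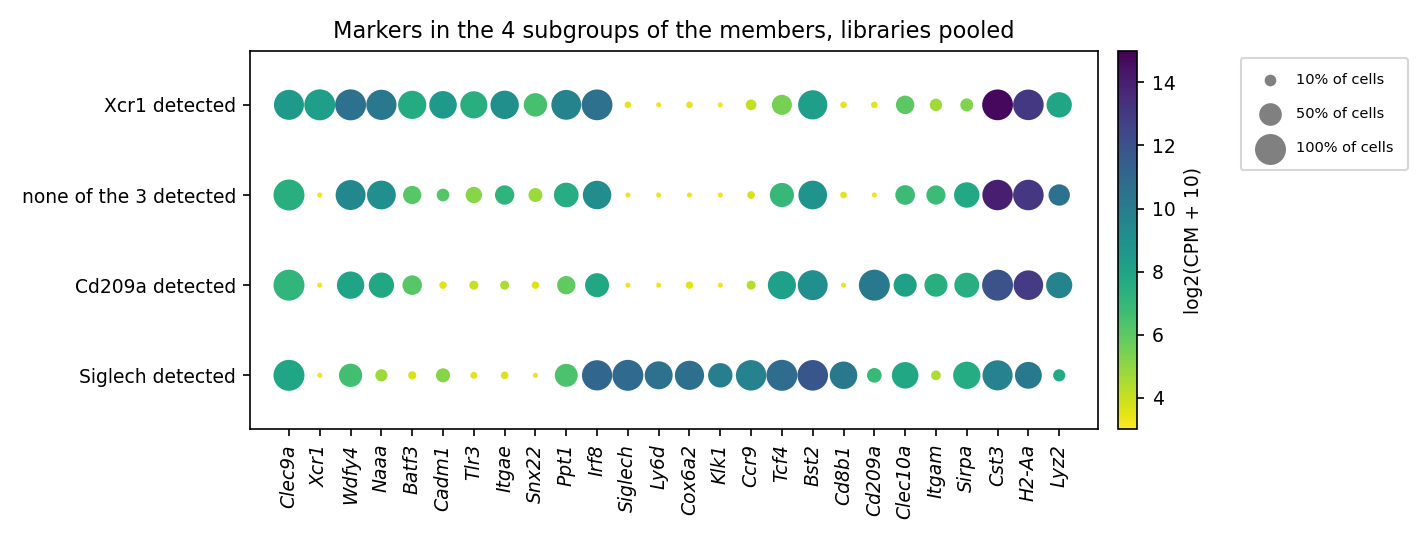
Marker genes (columns) in the 4 subgroups of the members (rows), libraries pooled; dot area gives the percentage of cells with a UMI and colour the level as log2(CPM + 10). Cadm1, Tlr3, Itgae and Batf3 are large and dark in the Xcr1 row, and Siglech, Ly6d, Cox6a2, Klk1 and Ccr9 in the Siglech row.

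The mixture varied with the number of UMIs of the gating genes. Outside it, 3127 cells met every other condition with no UMI of Xcr1 or Clec9a, and 1.38% of them carried Cadm1. Inside it, Cadm1 was found in 8.11% of the 148 members with 1 UMI, 8.64% of the 81 with 2, 35.2% of the 88 with 3 to 5 and 78.3% of the 60 with 6 or more. Siglech went from 3.45% outside to 26.4%, 45.7%, 36.4% and 15% over the same steps. Sirpa, a receptor that cDC1 are known to lack, was found in 79.1% outside, 73.6% at 1 UMI and 18.3% at 6 or more. Members with many UMIs of the gating genes thus carried Cadm1 and little Sirpa, and those with 1 or 2 did not. The median depth also rose over these steps, from 10914.5 UMIs at 1 to 17098 at 6 or more, and its part was not tested.

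**Figure D2:**
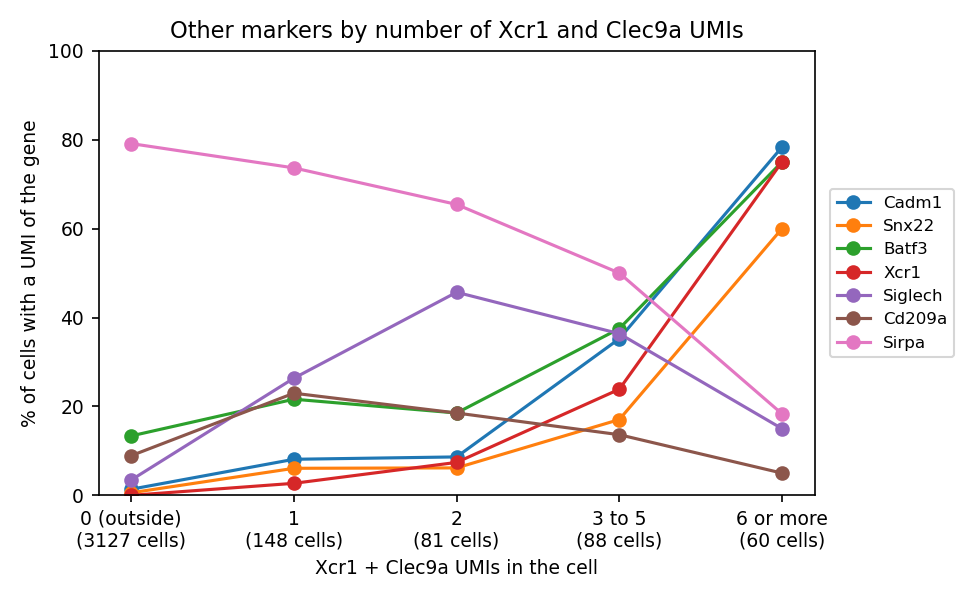
Percentage of cells with a UMI of each gene, by the number of Xcr1 and Clec9a UMIs in the cell; 0 lies outside the gate, and cell numbers stand under the axis. Cadm1 climbs from 1.38% to 78.3%, Sirpa drops from 79.1% to 18.3% and Siglech is highest, at 45.7%, with 2 UMIs.

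The upper limit of 5 C1q UMIs removed 59 cells that met all other conditions, 11 of them with 5 to 19 UMIs and 48 with 20 or more, while 338 members had 0 and 39 had 1 to 4. The condition on Cd3 alone removed 59 cells, that on Cd79a 2 and that on Ccr7 with Fscn1 32. The gating genes were also found at a low share in cells that should lack them. In a T-cell gate (at least 2 Cd3 UMIs, no C1q and no Cd79a), Clec9a was detected in 0.357% to 0.773% and Xcr1 in 0.268% to 0.644% of cells by library, at medians of 4981.5 to 5787 UMIs, against 98.1% to 100% and 15.7% to 24.3% of members. Siglech was detected in 0.0577% to 0.515% of T-gated cells and in 23.5% to 34.0% of members.

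Members took a smaller share of the leukocytes in each treated library than in the untreated one. They were 166 of 6783 filtered cells in the untreated library, 2.45% (95% Clopper-Pearson interval 2.09 to 2.84). They were 57 of 3748 with the STING agonist, 1.52% (1.15 to 1.97), and 103 of 7147 with the LTbR agonist, 1.44% (1.18 to 1.75). With the combination they were 51 of 5333, 0.956% (0.713 to 1.26). The interval of the untreated library lay above those of the 3 treated libraries, which overlapped one another. Relative to untreated, the STING agonist library had 0.621 (0.406 to 0.939) of the share, the LTbR agonist library 0.589 (0.414 to 0.834) and the combination library 0.391 (0.251 to 0.600), bounds that set opposite ends of the intervals against each other. Against single agonists the combination's ratios, 0.629 (0.363 to 1.09) to the STING agonist and 0.664 (0.408 to 1.07) to the LTbR agonist, had intervals that included equal shares.

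The choice of denominator mattered. Among gated dendritic cells, meaning the members, a Cd209a gate (the same rule without Xcr1 and Clec9a but with Cd209a) and a mature gate (Ccr7 and Fscn1 both detected), the members made up 42.2% (37.3 to 47.3) in the untreated, 39.3% (31.3 to 47.8) in the STING agonist, 37.6% (31.8 to 43.6) in the LTbR agonist and 34.7% (27.0 to 43.0) in the combination library. All 4 intervals overlapped, and the ratio of combination to untreated was 0.821 (0.572 to 1.15). The other gates were lower in the treated libraries too. The Cd209a gate held 1.46%, 1.17%, 1.22% and 0.919% of filtered cells and the mature gate 1.89%, 1.17%, 1.18% and 0.881%, in the same order. The mature gate's ratio of combination to untreated was 0.467 (0.289 to 0.742) and the Cd209a gate's 0.630 (0.384 to 1.02). Over filtered cells without Cd3 and Cd79a UMIs, the members' ratio was 0.525 (0.337 to 0.803). A lower share can come from fewer of these cells or from more of the others, and shares from a sort cannot tell these apart.

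The Xcr1-detected and the Siglech-detected members were both lower in the combination library. Xcr1-detected members numbered 34, 9, 25 and 8 in the untreated, STING agonist, LTbR agonist and combination libraries, and their ratio of combination to untreated was 0.299 (0.0926 to 0.850). Siglech-detected members numbered 55, 15, 35 and 11, with a ratio of 0.254 (0.0977 to 0.603). Members with none of the 3 genes numbered 58, 29, 30 and 26, and their ratio of 0.570 (0.289 to 1.10) had an interval that included 1. Without any cell that carried Siglech, 111, 42, 68 and 39 members were left, with a ratio of 0.447 (0.265 to 0.741). When at least 3 UMIs of Xcr1 and Clec9a were asked for, 72, 20, 44 and 12 cells were left, and the ratio was 0.212 (0.0871 to 0.472). Thinned to 2000 UMIs per cell, 53, 12, 40 and 11 members were still detected, and the ratio was 0.266 (0.102 to 0.634). The lower shares with a single agonist were less firm. The ratio of the STING agonist to untreated was 0.685 (0.411 to 1.12) without any cell that carried Siglech and 0.788 (0.478 to 1.28) without cells that held at least 2 markers of another cell type, and that of the LTbR agonist was 0.743 (0.407 to 1.35) in thinned cells.

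The makeup of the gate differed between libraries too, within wide intervals. Members with none of the 3 genes made up 34.9% (27.7 to 42.7) in the untreated and 29.1% (20.6 to 38.9) in the LTbR agonist library, against 50.9% (37.3 to 64.4) with the STING agonist and 51.0% (36.6 to 65.2) with the combination. Siglech-detected members made up 33.1% (26.0 to 40.8), 26.3% (15.5 to 39.7), 34.0% (24.9 to 44.0) and 21.6% (11.3 to 35.3) in the order untreated, STING agonist, LTbR agonist and combination. These intervals overlapped, but each level summed over members below holds a different mixture in each library. Expression values are therefore also given without the Siglech-detected cells or within a subgroup.

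**Figure D3:**
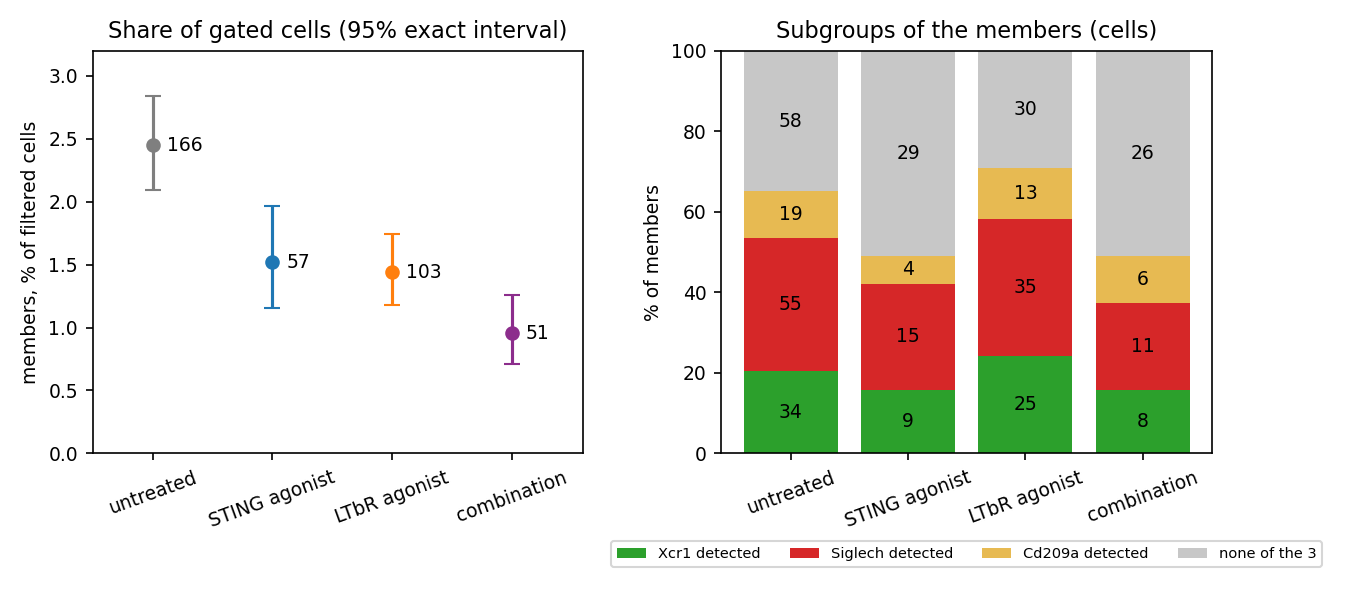
Left, members as a percentage of filtered cells in each library, with the 95% exact interval and the number of cells; right, the members of each library by subgroup, as percentages with cell numbers. The untreated share of 2.45% lies above the others, and the grey part with none of the 3 genes reaches 50.9% and 51.0% in the STING agonist and combination libraries.

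Many genes of the interferon gamma response were higher, summed over members, in both libraries that had received the STING agonist. Within the few Xcr1-detected members the sum of the list was not higher. Levels below are CPM over all members of a library, and ratios are log2 of CPM plus 10 in each library, so a low gene's difference is understated. A gene was measured with at least 50 UMIs in 1 of the 2 libraries and was past the fold at 1.5-fold either way. Of 20 measured genes on the interferon gamma list, 7 were past it upward and 0 downward with the STING agonist, with a list median of 0.53, where 2.47% of all 5622 measured genes were past it upward and 4.59% downward and their median was -0.02. With the combination 8 were past it upward and 0 downward, with a list median of 0.38, against 4.13% upward and 7.17% downward of 5624 genes, whose median was -0.06. With the LTbR agonist 0 were past it upward and 3 downward, with a list median of -0.20, against 1.77% and 2.43% of 5637 genes. Without the Siglech-detected cells the counts were 8 and 0, 7 and 0, and 0 and 4, in the same order, where 3.29% upward and 6.23% downward, 6.15% and 7.98%, and 3.05% and 3.48% of all genes were past the fold.

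Within the Xcr1-detected members the 26 listed genes together stood at 3579 CPM in the untreated, 3409 CPM in the STING agonist, 3098 CPM in the LTbR agonist and 2666 CPM in the combination library. These sums rest on 34, 9, 25 and 8 cells and weigh abundant genes most, unlike the counts past the fold. Within the Siglech-detected members the listed genes stood at 4685, 6856, 5536 and 5608 CPM, and over all members at 5172, 6981, 4261 and 5947 CPM.

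On this list the combination's members were also set against those of each single agonist. Over the STING agonist, 1 of 18 measured genes was past the fold upward and 0 downward (list median -0.08), where 4.87% upward and 6.76% downward of all genes were, and without the Siglech-detected cells the counts were the same, against 7.05% and 7.85%. Over the LTbR agonist, 8 of 16 were past it upward and 0 downward (0.60), against 3.85% and 7.05%, and without the Siglech-detected cells 9 and 0, against 5.54% and 8%.

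Cxcl9, a chemokine that draws CXCR3-bearing T cells, had the highest ratio with the STING agonist of the genes named by size. It was at 156 CPM (95% Poisson interval 140 to 174) in the untreated, 375 CPM (333 to 420) in the STING agonist, 86.6 CPM (70.7 to 105) in the LTbR agonist and 411 CPM (363 to 464) in the combination library. The STING agonist and combination libraries were high and overlapped, and the LTbR agonist library was below untreated. The log2 ratio to untreated was 1.21 (0.90 to 1.52), -0.78 (-1.19 to -0.38) and 1.34 (1.02 to 1.66), in the same order. Cxcl9 was detected in 21.7%, 43.9%, 17.5% and 37.3% of members, against 2.14% to 3.81% of T-gated cells. The members with none of the 3 genes carried most of it, with 318, 602, 176 and 663 CPM by library, against 117, 187, 102 and 128 CPM with Xcr1, and with Siglech it stood at 0 UMIs in all but the STING agonist library. Over the gates, its pooled level was 247 CPM in the Cd209a gate, 137 CPM in the mature gate and 424 CPM in the C1q macrophage gate (at least 5 C1q UMIs).

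Socs1, a feedback inhibitor of cytokine signalling, showed the same order without the dip. It stood at 46.4 CPM (37.8 to 56.5) in the untreated, 100 CPM (79.4 to 125) in the STING agonist, 48.3 CPM (36.7 to 62.4) in the LTbR agonist and 125 CPM (99.1 to 156) in the combination library. Within the Xcr1-detected members, where the sum of the list was not higher, Socs1 was at 49.6, 79.1, 27.3 and 134 CPM. Igtp, an immunity-related GTPase, was at 52, 124, 48.3 and 98.4 CPM, and Iigp1, of the same family, at 92.9, 166, 88.2 and 191 CPM. Igtp was detected in 34.9%, 45.6%, 27.2% and 43.1% of members, and in 33.8% to 43.0% of T-gated cells, so its detection is not particular to the members. Gbp2, a guanylate-binding protein, was at 194, 319, 150 and 362 CPM and was carried mainly by the members with none of the 3 genes and by the Cd209a-detected ones. Serpina3g, a protease inhibitor, was highest with the combination, at 131 CPM (105 to 162) against 40.4 CPM (32.4 to 49.8) untreated, a log2 ratio of 1.49 (0.94 to 2.03), and it stood at 61.8 and 59.9 CPM with the single agonists.

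Not all of the list moved this way. Ciita, the switch of MHC class II genes, had log2 ratios of 0.08, -0.39 and -0.37, and Psmb9, an immunoproteasome subunit, 0.29, -0.01 and -0.11. Gbp4 was at 45.5 CPM (37.0 to 55.5) untreated and 16.6 CPM (10.2 to 25.7) with the LTbR agonist, and Gbp5 at 104 and 55.8 CPM, so these 2 and Cxcl9 were the 3 past the fold downward there. Cxcl10, a chemokine of the same receptor that stood on another list, had the order of Cxcl9, with 185, 315, 83.2 and 341 CPM, but 1 cell held 31.0% to 52.7% of its UMIs in each library. The share of members with none of the 3 genes was highest in the libraries where this list was high. With each library's subgroups weighted as in the untreated library, the log2 ratio of Cxcl9 was 0.90, -0.75 and 1.09, that of Socs1 0.85, 0.16 and 1.09, and that of Gbp2 0.24, -0.30 and 0.51.

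Summed over members, the type I interferon list gave smaller differences, but its subgroups did not move together. Within the Xcr1-detected members its genes summed to 5084, 3805, 5382 and 2652 CPM (untreated, STING agonist, LTbR agonist, combination). Within the Siglech-detected members they summed to 5872, 7698, 7416 and 7830 CPM. Few cells carry these sums, 9 and 8 with Xcr1 and 15 and 11 with Siglech in the STING agonist and combination libraries. Of 34 measured genes, 1 was past the fold upward and 1 downward with the STING agonist, 2 and 0 with the LTbR agonist and 5 and 1 with the combination, and the list medians were 0.09, 0.07 and 0.26. Of all genes, 2.47% upward and 4.59% downward, 1.77% and 2.43%, and 4.13% and 7.17% were past the fold, so the counts of the single agonists were near the background. Without the Siglech-detected cells the list's counts were 1 and 3, 0 and 0, and 5 and 2. The shares of all genes there were 3.29% upward and 6.23% downward, 3.05% and 3.48%, and 6.15% and 7.98%. Oasl2, an antiviral protein, was at 132 CPM (117 to 148), 153 CPM (127 to 183), 151 CPM (130 to 174) and 248 CPM (211 to 290), so the combination library stood above the other 3. Ifit2, which blocks translation of viral RNA, was at 91.0, 61.8, 110 and 164 CPM. Ifit3 was lower with the STING agonist, at 19.3 CPM (10.8 to 31.8) against 49.2 CPM (40.3 to 59.5), and stood at 54.1 and 73.4 CPM with the LTbR agonist and the combination. Isg15, a ubiquitin-like protein, differed less, at 617, 770, 739 and 651 CPM. Ifi205 was lower with the combination, at 481 CPM (429 to 538) against 733 CPM (698 to 771).

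The 250 bases before the start of 4 list genes are shown because their levels moved apart, with letters matching an interferon-stimulated response element (ISRE: GAAA, any 2 bases, GAAA) or a kappa B site (GGGA, any 4 bases, CC) in capitals, found on either strand. Sequences and starts are those of RefSeq on GRCm38.p6, given 5′ to 3′ along each gene's strand: Socs1 (ISRE letters) at chr16:10785537-10785786, minus strand, Ifit3 (ISRE letters) at chr19:34583279-34583528, plus strand, Cxcl9 (kappa B letters) at chr5:92328080-92328329, minus strand, and Nfkb2 (kappa B letters) at chr19:46304487-46304736, plus strand.
Socs1: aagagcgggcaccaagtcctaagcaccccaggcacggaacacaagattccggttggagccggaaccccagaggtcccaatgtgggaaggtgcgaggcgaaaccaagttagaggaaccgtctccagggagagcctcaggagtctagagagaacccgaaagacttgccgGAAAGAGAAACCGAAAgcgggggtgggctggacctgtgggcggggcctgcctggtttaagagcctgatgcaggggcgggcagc
Ifit3: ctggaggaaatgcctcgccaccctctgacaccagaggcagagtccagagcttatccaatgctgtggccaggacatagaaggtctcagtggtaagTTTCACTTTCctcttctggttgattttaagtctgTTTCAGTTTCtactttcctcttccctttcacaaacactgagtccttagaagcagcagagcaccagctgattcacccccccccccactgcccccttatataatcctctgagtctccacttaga
Cxcl9: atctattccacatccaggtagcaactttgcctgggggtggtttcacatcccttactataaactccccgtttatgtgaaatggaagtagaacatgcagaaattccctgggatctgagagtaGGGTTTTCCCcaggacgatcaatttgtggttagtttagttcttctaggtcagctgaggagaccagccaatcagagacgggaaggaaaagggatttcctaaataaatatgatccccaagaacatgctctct
Nfkb2: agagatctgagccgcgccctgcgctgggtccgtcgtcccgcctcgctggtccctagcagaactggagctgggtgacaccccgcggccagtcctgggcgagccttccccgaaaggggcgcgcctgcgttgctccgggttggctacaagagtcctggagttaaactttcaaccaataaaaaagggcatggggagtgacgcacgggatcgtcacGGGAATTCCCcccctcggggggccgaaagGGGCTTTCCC

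Socs1 held 2 overlapping ISRE matches, starting 83 and 77 bases before the start, and Ifit3 held 2 on the other strand, 156 and 122 bases before it. Cxcl9 held 1 kappa B match, 130 bases before the start, and Nfkb2 one that reads the same way on both strands, 39 bases before it, and one at 10 bases. In windows from 250 bases before to 50 after the start, 943 of 27025 promoters (3.49%) held the ISRE letters, against 17 of 31 of the type I interferon list (54.8%) and 10 of 16 of the interferon gamma list (62.5%). The kappa B letters were in 20.5% of all promoters, in 9 of 21 of the lymphotoxin and NF-kB list (42.9%), in 6 of 31 of the type I interferon list (19.4%) and in 4 of 16 of the interferon gamma list (25%), to which Cxcl9 belongs. These matches describe the letters only.

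Summed over members, genes of the lymphotoxin receptor and NF-kB list were higher with the STING agonist and with the combination than untreated. In the order untreated, STING agonist, LTbR agonist and combination, the 25 listed genes summed to 2407, 3044, 2581 and 3343 CPM over all members. Within the Xcr1-detected members they summed to 2202, 2244, 2174 and 2330 CPM, and within the Siglech-detected members to 1464, 1545, 1684 and 1246 CPM. Of 23 measured genes, 5 were past the fold upward and 0 downward with the STING agonist (list median 0.28), 1 and 0 with the LTbR agonist (0.04) and 11 and 1 with the combination (0.52), where 2.47% and 4.59%, 1.77% and 2.43%, and 4.13% and 7.17% of all genes were. Without the Siglech-detected cells the counts were 7 and 0, 0 and 0, and 9 and 2. Of all genes, 3.29% upward and 6.23% downward, 3.05% and 3.48%, and 6.15% and 7.98% were past the fold there. Of 19 genes measured between the combination and the STING agonist, 2 were past the fold upward and 1 downward (0.09), against 4.87% and 6.76% of all genes. That comparison thus set the combination and STING agonist libraries little apart on this list. Of 20 genes measured between the combination and the LTbR agonist, 6 were past the fold upward and 0 downward (0.37), against 3.85% and 7.05%. Without the Siglech-detected cells the counts were 8 and 0, against 5.54% and 8%. Nfkb2, which encodes the p100 precursor of the non-canonical pathway that LTβR is known to drive, was higher in all 3 treated libraries. It was at 47.8 CPM (39.1 to 58.0) in the untreated, 108 CPM (86.2 to 134) in the STING agonist, 77.4 CPM (62.5 to 94.8) in the LTbR agonist and 96.9 CPM (74.3 to 124) in the combination library, detected in 36.7%, 61.4%, 45.6% and 51.0% of members. The untreated interval lay below the other 3, which overlapped one another in part.

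Relb, the partner of NFKB2, was at 59.0, 100, 53.3 and 108 CPM, so the LTbR agonist library stood with untreated. Nfkbie, an inhibitor of NF-kB, was at 83.6 CPM (71.8 to 96.8), 151 CPM (125 to 180), 112 CPM (94.2 to 133) and 153 CPM (124 to 187). Traf3, which restrains the non-canonical pathway, was highest with the combination, at 175 CPM (144 to 211) against 89.2 CPM (77 to 103) untreated and 63.1 and 96.6 CPM with the STING agonist and the LTbR agonist. Nfkbiz went the other way, at 111 CPM (97.8 to 127) untreated and 68.7 CPM (49.9 to 92.3) with the combination. Ltbr itself, the receptor that the antibody binds, was at 26.5 CPM (20.1 to 34.3), 30.9 CPM (19.8 to 46.0), 30.8 CPM (21.7 to 42.5) and 53.1 CPM (36.8 to 74.2), and it was detected in 24.7% to 31.4% of members against 1.61% to 3.09% of T-gated cells.

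Summed over members, the list of mature dendritic cell genes was also higher with the STING agonist, within the limit that the rule had removed cells with both Ccr7 and Fscn1. Its 26 genes summed to 1536, 2347, 1396 and 2251 CPM over all members (untreated, STING agonist, LTbR agonist, combination). Within the Xcr1-detected members they summed to 1820, 2187, 1334 and 1987 CPM, and within the Siglech-detected members to 631, 631, 624 and 682 CPM. Of 13 measured genes, 8 were past the fold upward and 0 downward with the STING agonist (list median 0.84) and 1 and 2 with the LTbR agonist (-0.06), and of 14 with the combination 6 and 1 (0.48), against 2.47% and 4.59%, 1.77% and 2.43%, and 4.13% and 7.17% of all genes. Without the Siglech-detected cells the counts were 8 and 0, 1 and 2, and 7 and 2. The shares of all genes there were 3.29% and 6.23%, 3.05% and 3.48%, and 6.15% and 7.98%. Marcksl1, an actin-regulating protein, was at 46.0 CPM (37.4 to 56.0), 147 CPM (121 to 176), 81.6 CPM (66.2 to 99.4) and 145 CPM (117 to 178). Detected in 24.7% of untreated and 56.9% of combination members, it was carried mainly by the Cd209a-detected members and those with none of the 3 genes, and 1 cell held 23.7% of its UMIs in the STING agonist library. Ccr7, the receptor for migration to lymph nodes, was at 63.2, 184, 73.3 and 170 CPM, but a single cell held 36.8% to 64.8% of its UMIs in each library. The same holds for Ccl22, with one cell at 36.8% to 58.2%, so neither value speaks for the members at large. Cd80, a costimulatory ligand of the T-cell receptor CD28, was at 114 CPM (100 to 129) untreated and 200 CPM (167 to 238) with the combination, and Cd86, with the same role, at 538 and 462 CPM.

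**Figure D4:**
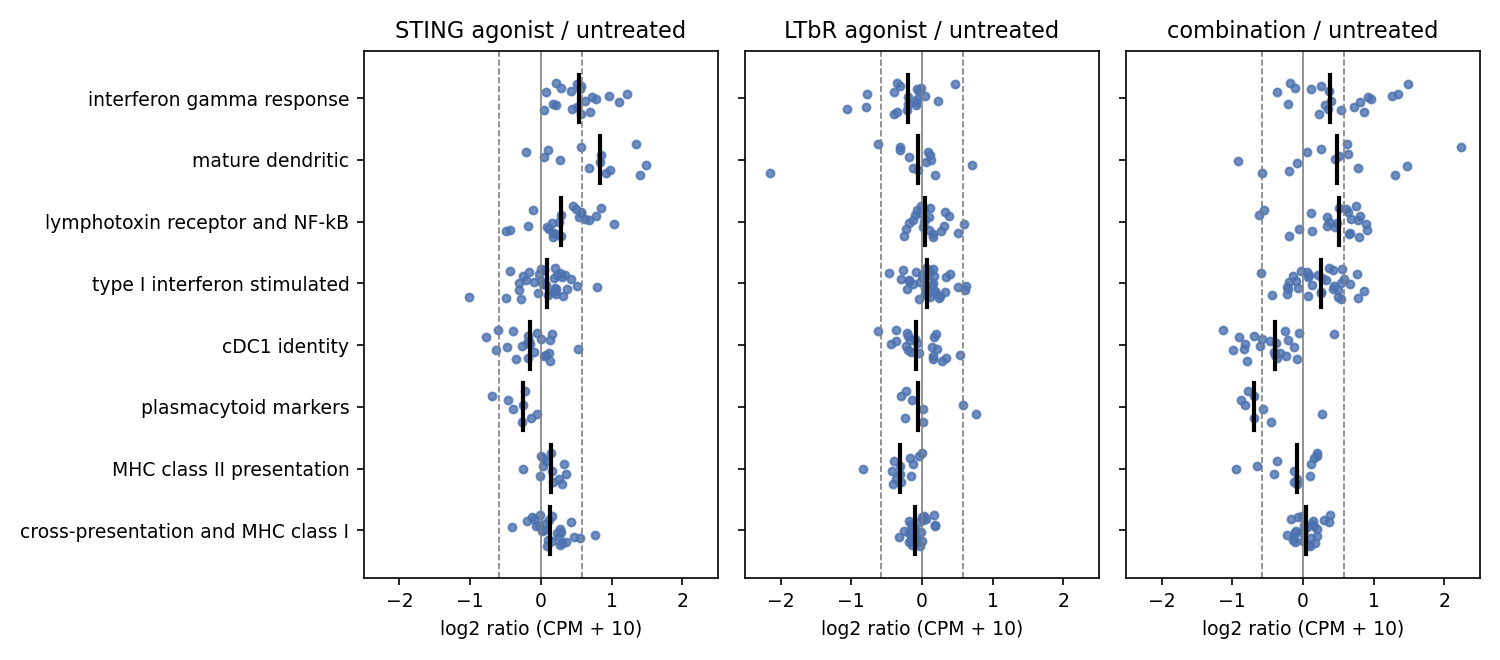
Log2 ratio of each treated library to untreated (CPM + 10) for the measured genes of 8 lists; points are genes, black bars list medians and dashed lines the 1.5-fold limits. The interferon gamma list lies to the right with the STING agonist and the combination, at medians of 0.53 and 0.38, and to the left with the LTbR agonist, at -0.20.

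The cDC1 identity genes leaned the other way with the combination. Of 22 measured genes, 0 were past the fold upward and 9 downward (list median -0.40), against 3 downward with the STING agonist (-0.16) and 1 with the LTbR agonist (-0.09). Of all genes, 7.17%, 4.59% and 2.43% were past the fold downward in these contrasts. Without the Siglech-detected cells the combination's count was 12 and its median -0.62, where 7.98% of all genes were past it downward. The list holds Xcr1, Clec9a and Wdfy4, which the rule used. Id2, a regulator that conventional dendritic cells need, was at 283 CPM (261 to 306) in the untreated, 412 CPM (368 to 460) in the STING agonist, 328 CPM (296 to 362) in the LTbR agonist and 155 CPM (126 to 188) in the combination library, where one cell held 34.3% of it. Tlr3 was at 65.5 CPM (55.1 to 77.2), 38.6 CPM (26.1 to 55.1), 55.8 CPM (43.2 to 70.8) and 28.1 CPM (16.7 to 44.4). Btla, an inhibitory receptor, was at 243, 201, 207 and 156 CPM, and Irf8 at 1202, 1301, 1172 and 958 CPM.

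Several of these genes were not lower inside the Xcr1-detected members, while they were lower in members with none of the 3 genes. Cadm1 was at 372 CPM untreated and 363 CPM with the combination in Xcr1-detected members, but at 100 and 9.75 CPM in members with none of the 3 genes. Naaa was at 1166 and 1162 CPM in the former and 537 and 345 CPM in the latter, and Plet1 at 904 and 1202 CPM in the former and 692 and 276 CPM in the latter. Itgae followed the same pattern, with 450 and 645 CPM against 207 and 58.5 CPM. Id2, at 571 and 423 CPM with Xcr1 and 339 and 111 CPM with none of the 3 genes, had the lower value with the combination in both. Tlr3 did too, at 184 and 121 CPM with Xcr1 and at 42.2 CPM and 0 UMIs with none of the 3 genes. The Xcr1-detected values of the combination rest on 8 cells.

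Summed over members, the plasmacytoid list was lower with the combination as well, with 0 of 8 genes past the fold upward and 5 downward (list median -0.69), against 0 and 1 with the STING agonist (-0.26) and 1 and 0 with the LTbR agonist (-0.06), where 4.13% and 7.17%, 2.47% and 4.59%, and 1.77% and 2.43% of all genes were. Within the Siglech-detected members the list summed to 9579 CPM untreated and 9161 CPM with the combination. Without them the combination had 1 gene past the fold upward, 0 downward and a median of 0, but this was largely fixed in advance. Removing these cells removed Siglech itself and left Klk1 at 0 UMIs and Cox6a2 at 1.13 CPM or less, so nothing is concluded from it. Siglech-detected members were 21.6% of the gate in the combination library and 33.1% in the untreated one. Cox6a2 went from 477 CPM (untreated) to 255 CPM and Ccr9 from 243 to 147 CPM. Ly6d was higher rather than lower, at 392 against 323 CPM, with 554 CPM in the LTbR agonist library. Srgap3, Mctp2, Satb1 and Rpgrip1, which were among the 10 genes with the lowest ratios under the combination, were carried mainly by Siglech-detected members. Mctp2 was at 344 and 122 CPM over all members but at 2.58 CPM and 0 UMIs without the Siglech-detected cells, where its log2 ratio of -1.42 became -0.33. Srgap3 was at 192 and 57.8 CPM, and its ratio of -1.58 was still -1.32 without them.

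Relative to untreated, few MHC genes were past the fold. Of 13 measured class II genes, 0 were past the fold with the STING agonist, 1 downward with the LTbR agonist and 2 downward with the combination, and the medians were 0.14, -0.31 and -0.09, while 4.59%, 2.43% and 7.17% of all genes were past the fold downward. Of 13 measured between the combination and the STING agonist, 0 were past it upward and 3 downward (-0.30), against 4.87% and 6.76%. H2-Aa, a class II alpha chain, was at 6801, 8395, 5098 and 6430 CPM, and Cd74, the invariant chain, at 16729, 21090, 15363 and 18075 CPM. H2-Oa, part of a class II loading inhibitor, was lower in both libraries with the LTbR agonist, at 217 CPM (198 to 238) untreated, 180 CPM (152 to 213) with the STING agonist, 117 CPM (98.8 to 138) with the LTbR agonist and 108 CPM (83.9 to 136) with the combination. Of 26 measured genes of class I and cross-presentation, 1 was past the fold upward and 0 downward with the STING agonist, against 2.47% and 4.59% of all genes, and 0 either way with the LTbR agonist and the combination relative to untreated. Of 24 measured between the combination and the STING agonist, 0 were past it upward and 2 downward, against 4.87% and 6.76%. Tap1, the peptide transporter, was at 302, 449, 287 and 328 CPM, and H2-K1 at 1954, 2362, 1767 and 2073 CPM.

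Beyond these lists, the genes named by their size of difference were those with the 10 highest and 10 lowest log2 ratios in each contrast, found in at least 10% of members of 1 library and with no cell holding over 20% of the UMIs in the higher library. With the STING agonist, Cxcl9, Ass1, Igtp and Fdps led. Ass1, an enzyme of arginine synthesis, was at 246 CPM (225 to 268) in the untreated, 551 CPM (500 to 606) in the STING agonist, 245 CPM (218 to 274) in the LTbR agonist and 476 CPM (425 to 533) in the combination library. It was high in both libraries with the STING agonist, with log2 ratios of 1.13 (0.88 to 1.39) and 0.93 (0.65 to 1.21), and was detected in 71.9% and 72.5% of members there against 59.6% untreated. Fdps, an enzyme of cholesterol synthesis, was at 102, 223, 157 and 109 CPM and thus not higher with the combination. Irf5, a factor downstream of nucleic acid sensing, was at 255, 480, 301 and 414 CPM and was found in 78.9%, 94.7%, 73.8% and 82.4% of members. Tmem173, which encodes STING itself, was at 81.3 CPM (69.7 to 94.3), 142 CPM (116 to 171), 73.3 CPM (58.8 to 90.3) and 92.2 CPM (70.2 to 119).

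Among the genes lowest with the STING agonist were Apoe, a lipid carrier, Slc7a1, an arginine transporter, Strbp and Itgam, the integrin CD11b. Slc7a1 was at 49.2 CPM (40.3 to 59.5) untreated and 12.9 CPM (6.17 to 23.7) with the STING agonist, and at 37.5 and 32.8 CPM in the other libraries. Strbp, an RNA-binding protein gene, was at 48.3, 14.2, 43.3 and 15.6 CPM, and so was lower in both libraries with the STING agonist. Apoe was at 134, 39.9, 81.6 and 43.7 CPM, much of it in untreated Siglech-detected members, and without them its log2 ratio with the STING agonist was -0.62 rather than -1.53. Itgam was at 48.3, 12.9, 97.4 and 114 CPM, lower with the STING agonist alone and higher with the LTbR agonist and the combination.

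With the LTbR agonist, the highest ratios went to myeloid genes. F13a1, coagulation factor XIII, was at 28.3 CPM (21.7 to 36.4) untreated and 87.4 CPM (71.5 to 106) with the LTbR agonist, and it was found in 7.23% and 15.5% of members. Msr1, a scavenger receptor, was at 20.4 and 59.1 CPM and Lyz2 at 444 and 965 CPM. Gda, guanine deaminase, was at 42.3 and 102 CPM, with 144 CPM in the combination library. These genes are also genes of monocytes and macrophages. The 16 macrophage markers summed to 1261 CPM in untreated, 1068 CPM in STING agonist, 1798 CPM in LTbR agonist and 2253 CPM in combination members, and the 8 monocyte markers to 3360, 2894, 3757 and 3773 CPM. The part of such cells in the result was not tested.

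The lowest ratios with the LTbR agonist included Klri1, Ctnnd2, Il18bp, Fcgr4 and Ifitm1. Klri1, a lectin-like receptor gene, was at 86.4 CPM (74.4 to 99.7) in the untreated, 97.8 CPM (77.1 to 122) in the STING agonist, 30.8 CPM (21.7 to 42.5) in the LTbR agonist and 53.1 CPM (36.8 to 74.2) in the combination library. The low LTbR agonist value was also seen within Xcr1-detected members, at 52.2 CPM against 183 CPM untreated. Il18bp, which neutralises IL-18, was at 37.2, 55.4, 10.8 and 23.4 CPM. Ifitm1, an interferon-induced membrane protein, was at 4810 CPM (4718 to 4904), 5942 CPM (5772 to 6116), 2312 CPM (2227 to 2399) and 2617 CPM (2493 to 2745), lower in both libraries with the LTbR agonist. Within members with none of the 3 genes it was at 10487, 10195, 5202 and 4694 CPM. Il1r2, a decoy receptor for IL-1, had the same order, at 1066, 1215, 538 and 622 CPM, and Ctnnd2 stood at 136, 108, 54.1 and 34.4 CPM. Il1r2 was chosen after its values had been seen.

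With the combination, Axl, Cfb, Gda, Serpina3g, Marcksl1 and Cebpb led. Axl, a receptor that takes up dying cells and dampens interferon signalling, was at 27.4 CPM (20.9 to 35.4) in the untreated, 39.9 CPM (27.1 to 56.6) in the STING agonist, 21.6 CPM (14.1 to 31.7) in the LTbR agonist and 116 CPM (90.8 to 145) in the combination library, a log2 ratio to untreated of 1.75 (1.15 to 2.33). The combination library alone was high, and there members with none of the 3 genes held 228 CPM and Xcr1-detected members 6.71 CPM. Cfb, a complement factor, was at 21.4, 59.2, 40.0 and 85.9 CPM, with 80.4% of the STING agonist UMIs in 1 cell, and Cebpb, a transcription factor of myeloid cells, at 230, 179, 338 and 650 CPM. Lrp1, another uptake receptor, was at 50.2, 39.9, 78.3 and 145 CPM, and Csf1r, the receptor for the macrophage growth factor M-CSF, at 78.0, 72.1, 84.9 and 181 CPM. Tgfb1 was at 263, 252, 329 and 466 CPM and was found in 82.5% to 92.2% of members and 67.5% to 70.2% of T-gated cells. Cebpb, Lrp1 and Gda moved with the macrophage list above, and that list's part was not tested.

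Lowest with the combination were Ctnnd2, Ppp1r14a and the genes carried by Siglech-detected members. Ctnnd2, a delta-catenin gene, was at 34.4 CPM (21.5 to 52) against 136 CPM (121 to 152) untreated, a log2 ratio of -1.71 (-2.36 to -1.07), and the ratio without the Siglech-detected cells was -1.65. Ppp1r14a, an inhibitor of myosin phosphatase, was at 43.2, 21.9, 26.6 and 6.25 CPM, the last from 4 cells, and it was carried by Xcr1-detected members and those with none of the 3 genes. Ifitm6 was at 506, 483, 311 and 194 CPM, and Spon1 at 79.0, 65.6, 59.9 and 21.9 CPM. Both were carried mainly outside the Siglech-detected cells.

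**Figure D5:**
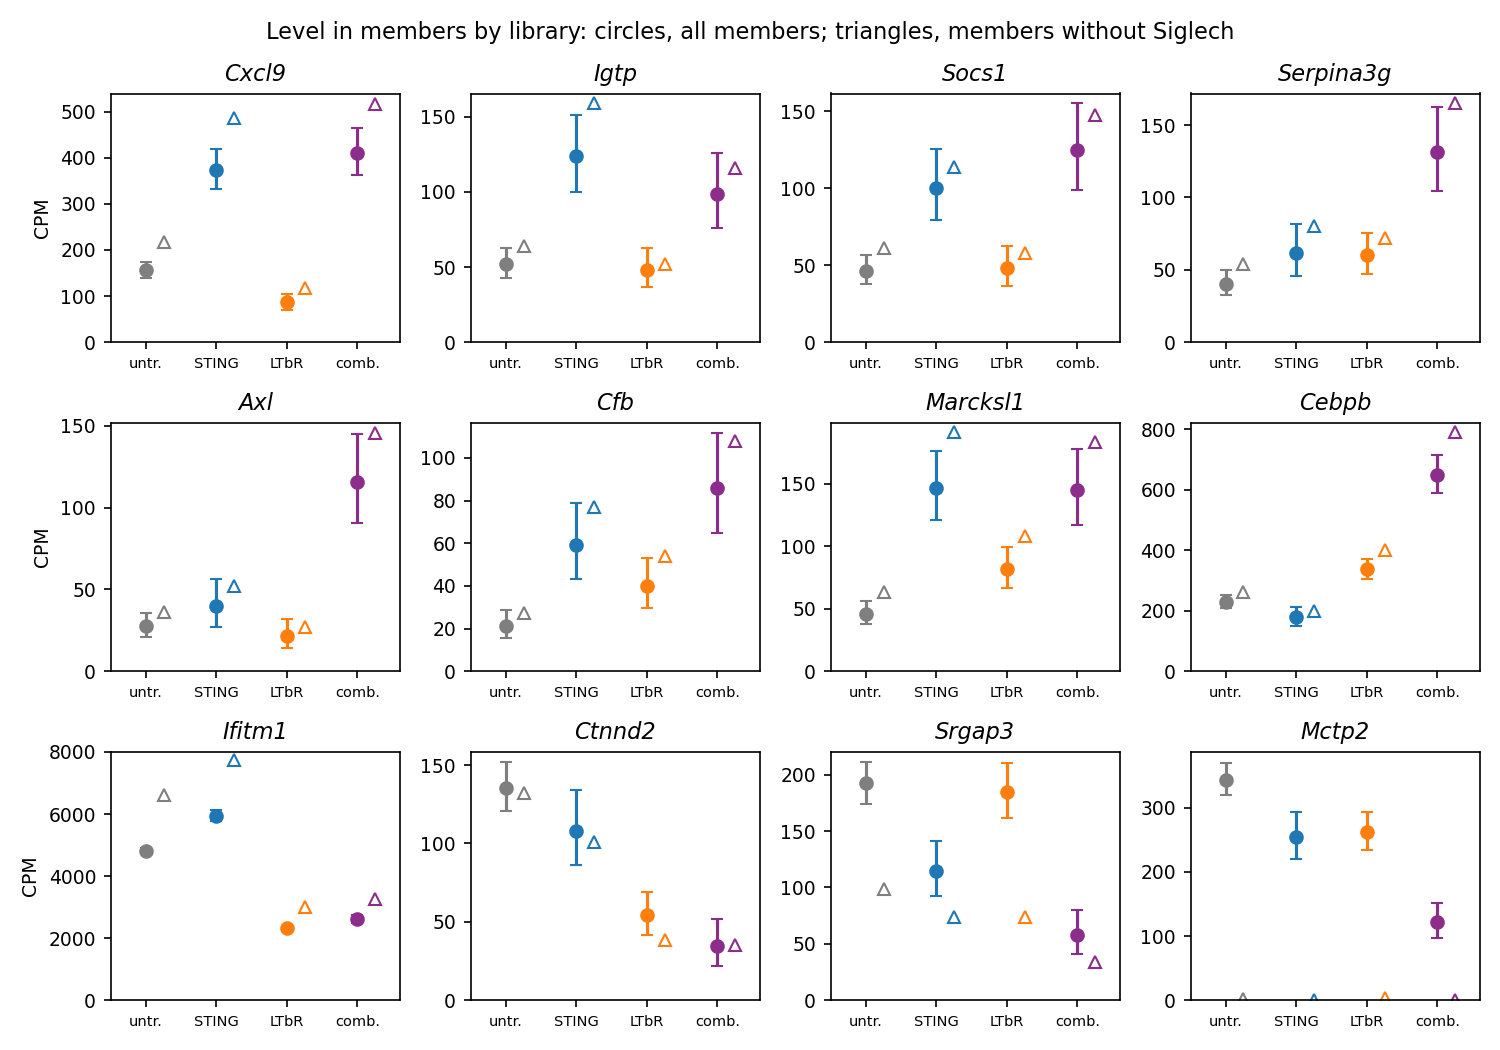
Level of 12 genes in CPM over the members of each library (untreated, STING agonist, LTbR agonist, combination), with 95% Poisson intervals; circles are all members and triangles members without Siglech. Cxcl9 is high in the STING agonist and combination libraries, at 375 and 411 CPM, Axl in the combination library, at 116 CPM, and Ifitm1 is low in both libraries with the LTbR agonist, at 2312 and 2617 CPM.

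Cytokine genes differed in how many members carried them. Il12b, the IL-12 subunit, was detected in 12, 3, 2 and 1 members of the untreated, STING agonist, LTbR agonist and combination libraries. Its 101 CPM in the LTbR agonist library came to 98.3% from 1 cell. It was carried mainly by Xcr1-detected members, with 0 UMIs in Siglech-detected ones. Ccl17, which draws CCR4-bearing T cells, was at 9.75 CPM (6.04 to 14.9), 27.0 CPM (16.7 to 41.3), 20.8 CPM (13.5 to 30.7) and 76.6 CPM (56.6 to 101), with 28.0% to 47.6% of its UMIs in 1 cell of each library. Il1b was widespread at 2617, 3159, 2117 and 2214 CPM and was found in 62.1% to 69.3% of members, against 10.3% to 19.7% of T-gated cells. Vegfa, an angiogenic factor, was at 77.6 CPM (66.3 to 90.3) untreated and 219 CPM (184 to 258) with the combination, where 1 cell held 29.3% of it.

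Few members were cycling. With UMIs of at least 3 of 12 mitotic genes as the criterion, the untreated library had 5 of 166 members (3.01%), the STING agonist library 1 of 57 (1.75%), the LTbR agonist library 3 of 103 (2.91%) and the combination library 1 of 51 (1.96%). All 4 intervals overlapped. Of the 10 cycling members, 6 were among the 76 with Xcr1 and 0 among the 116 with Siglech, which allows a share of up to 2.59% there.

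Genes of other cell types appeared in 1 library above the others. The 9 neutrophil markers summed to 41.8 CPM in the untreated, 30.9 CPM in the STING agonist, 732 CPM in the LTbR agonist and 51.6 CPM in the combination members. S100a8, a defining neutrophil gene, was found in 8 LTbR agonist members (7.77%), at 254 CPM, of which 1 cell held 39.3%, and in 1 untreated member, and it was at 0 UMIs in the other libraries. Among LTbR agonist subgroups it stood at 548 CPM with Siglech, 318 CPM with Xcr1 and 2.94 CPM with none of the 3 genes. The T and NK markers summed to 487, 306, 430 and 273 CPM, with Cd8b1, which the Siglech-detected members carried, as their most abundant gene. The tumour cell markers summed to 9.37 to 30.9 CPM.

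In the other filtered cells, the ligand genes looked at did not all move one way. Ltb was lowest untreated and highest with the combination, at 110, 176, 161 and 220 CPM (untreated, STING agonist, LTbR agonist, combination). Cd40lg, Csf2 and Lta were also lowest untreated and highest with the combination. Ccl5 was highest untreated, at 2430, 1866, 1585 and 1679 CPM, and Tnfsf14 was lowest with the combination. The part of these ligands in the share of members was not tested. Xcl1, the ligand of XCR1, was at 70.8, 112, 92.8 and 62.8 CPM over all other filtered cells in the untreated, STING agonist, LTbR agonist and combination libraries. In an NK-cell gate it was at 735 CPM (696 to 776), 1298 CPM (1232 to 1366), 720 CPM (689 to 752) and 716 CPM (677 to 757), so the STING agonist library stood above the rest. Flt3l, the growth factor that acts through FLT3, was at 21.6, 24.1, 21.9 and 29.8 CPM over all other filtered cells. Ifng, which encodes interferon gamma, was at 76.1, 98.8, 49.1 and 77.1 CPM there, lowest in the LTbR agonist library, where Cxcl9 and Gbp4 of the members were lowest too, and the part of Ifng in those levels was not tested.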

How the data were processed

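Live CD45+ cells of pooled tumours were profiled by droplet single-cell RNA-seq with 5-prime chemistry, 1 library for each of 4 groups. The authors deposited gene-by-barcode matrices of UMI counts for 32285 genes, made with Cell Ranger 7.1.0 on mm10 per the labels, and not normalized. Which of the study's single-cell experiments these libraries belong to is not given in the sources used here. Cells with 300 to 5000 genes and at most 6% mitochondrial UMIs were kept, as in the study's methods, and doublets were kept (Scrublet in scanpy 1.11.5, expected rate 0.05).

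Counts were summed over members, scaled to CPM and compared as log2 of CPM plus 10, with Poisson or Clopper-Pearson 95% intervals (scipy 1.17.1, numpy 2.4.6, pandas 2.3.3, python 3.11.15). With 1 library per group no test was run. The steps were tested on simulated data. The members, the 25 gene lists (458 genes) and the subgroups were chosen with earlier results of these data known. Genes named by size were the 10 highest and 10 lowest ratios under the limits given above, and TMM factors (edgeR 4.0.16, no test) served as an alternative scaling. A count of 0 was given its limit of 3 counts.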

Additional observations from a re-analysis of the deposited data

Results flagged for a closer look

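3 genes moved in opposite directions under the same agonist, depending on the presence of the other. With 1 library per group these differences were not tested. Atp6v0a1, a subunit of the vacuolar proton pump, had a log2 ratio for the LTbR agonist of 0.77 without the STING agonist and -0.84 with it, from 30.7 CPM untreated, 72.1 CPM with the STING agonist, 59.1 CPM with the LTbR agonist and 35.9 CPM with the combination. Fcgr4, an activating antibody receptor, had a log2 ratio for the STING agonist of -0.94 without the LTbR agonist and 1.11 with it, from 48.8, 20.6, 15 and 43.7 CPM. The 1.11 rests on under 50 UMIs in the LTbR agonist library and in the combination library. Fcgr4 was thus below the limit for a measured gene in that contrast. Ccl5, a chemokine of T cells, had a log2 ratio for the STING agonist of -1.13 without the LTbR agonist and 0.89 with it, but 1 cell held 75.5% of its UMIs in the STING agonist and 71.0% in the LTbR agonist library, and T-gated cells carried it at 3702 CPM.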

How the results depend on the processing

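No paired analysis was possible because each group had 1 library, and for the same reason no library could be left out. Of 60 ratios of member shares, 55 stayed within the main value's counting interval and 5 moved, and 0 of all recomputed values changed sign past the fold. List medians and gene counts were less stable: 281 of 924 recomputed medians and 27 of 78 recomputed counts moved. With gated dendritic cells as the denominator, the ratio to untreated was 0.890 with the LTbR agonist and 0.821 with the combination. With at least 3 UMIs of Xcr1 and Clec9a, added after seeing the data, the combination's ratio was 0.212 to untreated and 0.365 to the LTbR agonist, and thinned to 2000 UMIs the latter was 0.358. Thinned cells held 0 cycling members in the STING agonist, LTbR agonist and combination libraries.

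Counts of genes past 1.5-fold depended on the pseudocount and the minimum. With the STING agonist, 139 genes were higher, 222 with a pseudocount of 1 CPM, 41 with 50 CPM, 233 with a minimum of 20 UMIs, 42 with 200 and 80 without the top cell of each gene, and 258 were lower, then 460, 29, 478, 42 and 450. With the LTbR agonist, 100 were higher, 28 with a pseudocount of 50 CPM, 210 with a minimum of 20 UMIs and 14 with 200, and 137 were lower, 238 with a pseudocount of 1 CPM, 23 with 50 CPM, 244 with a minimum of 20 UMIs and 26 with 200. With the combination, 232 were higher, 88 with a pseudocount of 50 CPM, 393 with a minimum of 20 UMIs, 60 with 200 and 145 without the top cell, and 403 were lower, 656 with a pseudocount of 1 CPM, 63 with 50 CPM, 626 by mean CPM per cell, 670 with a minimum of 20 UMIs, 92 with 200 and 686 without the top cell. Of 660 log2 ratios of named genes, 616 stayed within their intervals. Library sums of 640102 to 2152900 UMIs from 51 to 166 cells limit what low genes can show.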
